A study of Mus musculus with 11 samples.

Results

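The genes described here encode the proteins of basement membranes and the receptors that hold cells to them. They were chosen by name as 35 genes, which are the collagen IV chains, the laminin chains, nidogens, perlecan, agrin, collagens XV and XVIII, netrin 4, laminin- and collagen-binding integrins, dystroglycan, the laminin receptor *Bcam* and the Fraser complex. All 35 were found among the 22384 genes of the count table, and the rule that picks them uses gene names alone.

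RNA was sequenced in bulk from muscle spindles, the stretch-sensing organs of skeletal muscle, and from the extrafusal fibers next to them. The spindle group holds 5 libraries (numbers 9, 10, 12, 13 and 16) of spindle bundles picked by hand, and the muscle group holds 6 libraries (the same numbers and 11) of adjacent extrafusal fibers. Both tissues were taken from each mouse, so 2 libraries of the same number are read here as a pair from 1 mouse, though the labels do not state what the number stands for. Every library came from the deep masseter of mice that carry *Piezo2* EGFP-IRES-Cre together with the *Rosa26* tdTomato reporter, so both groups have the same alleles, and the age of these animals was not given in the sources used here. Under this Cre, tdTomato marked dorsal root ganglion neurons, intrafusal fibers and capsule cells. Bundles were picked whole, so a spindle library mixes fibers with capsule, nerve, vessel and connective tissue.

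A basement membrane is a thin sheet of matrix on the surface of muscle fibers, Schwann cells, perineurial cells, blood vessels and epithelia. Laminins, which are trimers of an alpha, a beta and a gamma chain, assemble on cells through integrins and dystroglycan, and a separate network of collagen IV is tied to them by nidogen and perlecan. In skeletal muscle the fiber's sheet is known for laminin with the *Lama2* chain, and the main receptors there are dystroglycan and the integrin of *Itga7* with *Itgb1*.

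Libraries held 8354260 to 23430654 reads assigned to genes, with the smallest total in spindle 9. Levels are CPM, the reads of a gene scaled to a fixed library total, after TMM scaling, which sets libraries against each other by genes of middling ratio. On the first principal component of log2 CPM (54.2% of the variance), 4 spindle libraries scored 59.8 to 81.3 and spindle 16 scored 21.7, against -56.6 to -49.5 in 5 muscle libraries and -25.4 in muscle 12, and on the second (13.4%) spindle 9 stood apart at -74.3 with the other 10 libraries between -8.8 and 31.2. Odorant receptor reads summed to 144 to 228 CPM in spindle 9, 10, 12 and 13 and 17.2 CPM in spindle 16, against 9.22 to 63.3 CPM in muscle. Markers went with the labels, though the lists were chosen with earlier results of these data known, so this is not an independent check. Of the markers of intrafusal and slow fibers, 9 of 9 were called higher in spindle (summed level 1345 to 1997 CPM in spindle, against 5.32 to 16.9 CPM in muscle). Fast-fiber markers summed to 23108 to 31935 CPM in spindle, against 64883 to 95195.5 CPM in muscle. Of the 9 fast-fiber markers 6 were called lower and 1 higher, *Myh4*, named after its values were seen (284 ± 60.2 CPM in spindle and 25.4 ± 20.2 CPM in muscle, SD, n = 5 and 6, log2 fold change 3.47), and fast-fiber transcripts were present in spindle libraries as well.

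Basement membrane genes differed between spindle and muscle in a few members by a large factor and in many by a small one. A call needed a mean of at least 5 normalized counts over the libraries, an adjusted p from edgeR no higher than 0.05 and a log2 fold change, spindle over muscle, of 1 or more in either direction. By this rule 7 of 35 members (20.0%) were called higher in spindle, where 11.1% of all genes tested were, and 0 were called lower, where 1.80% of all genes were. At an unadjusted p under 0.05 from edgeR 1 member was lower, a threshold for which no share of all genes was counted. DESeq2 called 9 members and 2743 of all genes higher, and limma-voom 8 members and 2177 of all genes. Both called 0 members lower. The 7 called in the main fit are the integrin subunits *Itgb4* and *Itga7*, the laminin chains *Lamb3* and *Lama3*, the collagens *Col4a5* and *Col18a1*, and *Ntn4*. Without the minimum fold change, 15 members (42.9%) were higher and 1 (2.86%) was lower, against 15.9% and 15.0% of all genes. The members' median log2 fold change was 0.54, beside 0.29 over all genes tested and -0.17 over genes with a mean of at least 50. In bulk RNA, more cells of a type and more RNA per cell cannot be told apart.

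**Figure D1:**
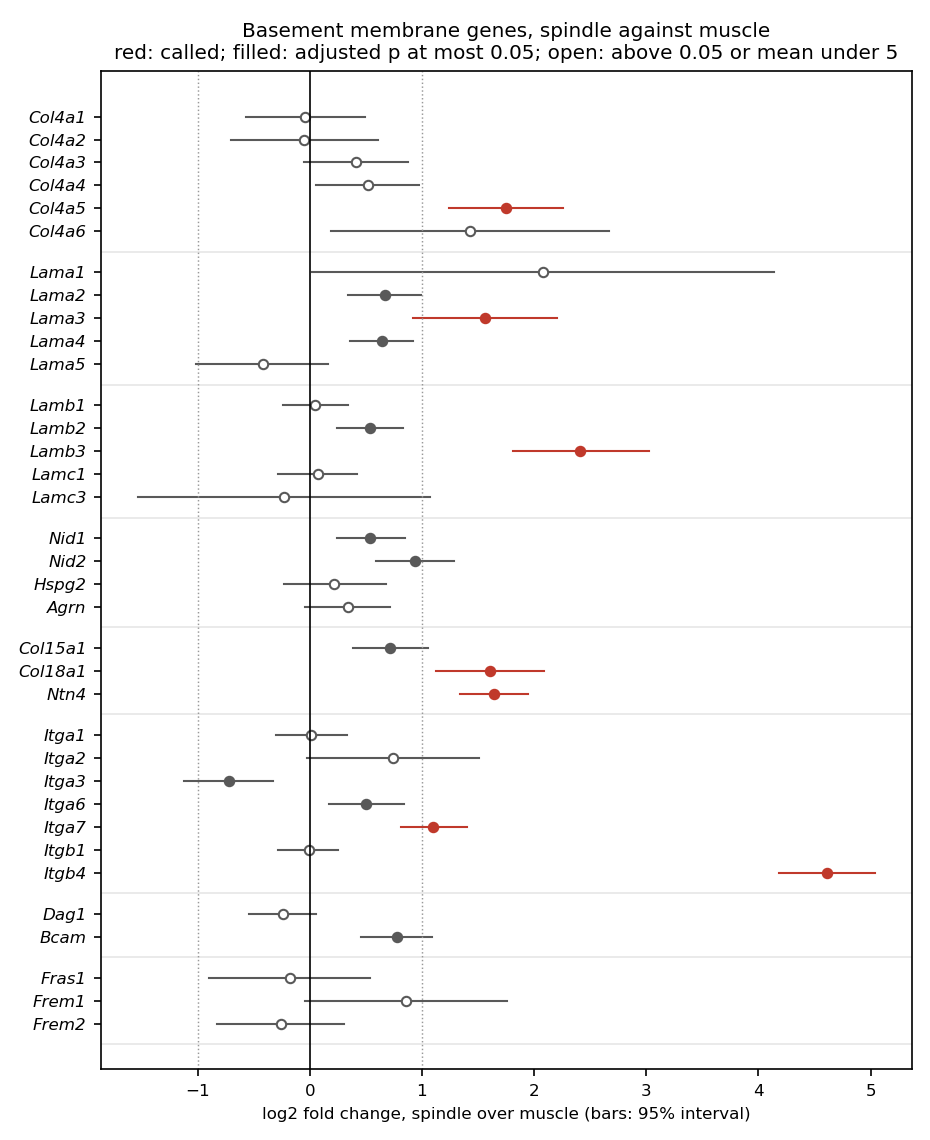
Log2 fold changes of the 35 members, spindle over muscle, with 95% intervals from edgeR, grouped by role from collagen IV (top) to the Fraser complex (bottom). Red points are the 7 called genes, filled points have an adjusted p of at most 0.05, open points do not or have a mean under 5, and *Itgb4* lies apart from the rest at 4.61.

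Among the receptors, *Itgb4* had the largest difference of the 35 members. It encodes the integrin beta subunit of hemidesmosomes, which joins the *Itga6* subunit alone. Its level was 101, 134, 86.2, 106 and 101 CPM in spindle 9, 10, 12, 13 and 16, and in muscle the lowest, median and highest levels were 2.06, 4.99 and 5.32 CPM. Every spindle library lay more than an order of magnitude above every muscle library. The log2 fold change was 4.61 (standard error 0.21, 95% interval 4.18 to 5.04, adjusted p = 7.168e-12 from edgeR), and the ratio of the group means was 24.3. The gene lies on chromosome 11 (115974709 to 116008412, plus strand, GRCm38), and 7.7% of its exon bases overlap the transcript *B230344G16Rik*. The counting's use of strand is not given in the sources used here, so reads from that stretch cannot be assigned to either.

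*Itga6*, the partner that *Itgb4* needs, differed far less. It was at 58.4, 74.3, 81.1, 51.9 and 75.8 CPM in spindle 9, 10, 12, 13 and 16, against 37.1, 46.0 and 68.0 CPM as the lowest, median and highest in muscle. The groups overlapped through muscle 12 and 16. Its log2 fold change of 0.50 (SE 0.16) passed the adjusted p of edgeR (0.0199) but not the minimum fold change, and it was higher in spindle in 5 of 5 pairs. The adjusted p went above 0.05 without spindle 12, muscle 11 or muscle 13. It reached 0.140 without spindle 10, 12 and 13, where the log2 fold change was 0.48. That alternative leaves only spindle 9 and 16 in the spindle group, here and below.

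*Itga7*, whose product pairs with that of *Itgb1* as a laminin receptor of muscle fibers, had 119, 128, 117, 85.3 and 142 CPM in spindle 9, 10, 12, 13 and 16. In muscle its lowest, median and highest levels were 45.5, 53.1 and 67.3 CPM. The groups did not overlap. The log2 fold change was 1.10 (SE 0.14, adjusted p = 8.144e-06 from edgeR), and the gene lies on chromosome 10 (128933818 to 128958282, plus strand). *Itgb1*, which encodes the beta subunit shared by most integrins of the list, was at 169 to 229 CPM in spindle and 161 to 221 CPM in muscle. Its log2 fold change was -0.01 with a 95% interval of -0.28 to 0.25.

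*Itga3*, which encodes another laminin-binding alpha subunit, was the member that passed the test in the other direction. It was at 5.44, 9.45, 7.86, 5.94 and 11.5 CPM in spindle 9, 10, 12, 13 and 16, against 10.9, 13.5 and 15.8 CPM in muscle (lowest, median, highest). Only spindle 16 reached into the muscle range, and the level was lower in spindle in 5 of 5 pairs. The log2 fold change was -0.72 (SE 0.19, adjusted p = 0.006353 from edgeR), under the minimum for a call. The direction held under each scaling tried, and the adjusted p was above 0.05 with scaling by library size alone (-0.40, 0.106) and without spindle 10, 12 and 13 (-0.63, 0.118). The collagen-binding subunits did not pass. *Itga1* had a log2 fold change of 0.01 (95% interval -0.30 to 0.33) and *Itga2*, at 1.20 to 3.06 CPM in spindle and 0.527 to 2.20 CPM in muscle, had 0.74 (-0.02 to 1.51).

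Because integrins assemble as pairs of 1 alpha and 1 beta subunit, the make-up of either family was also taken within each library. It is given as the share of each gene in the family's sum of CPM per kilobase of exon. *Itgb4* made up 24.3, 27.4, 21.8, 26.8 and 20.4% of the *Itgb1* and *Itgb4* sum in spindle 9, 10, 12, 13 and 16, and 0.736% to 1.50% in muscle. On this scale the median level of *Itgb4* was 14.4 CPM per kilobase of exon in spindle and 0.711 in muscle. *Itga7* made up 51.6% to 60.7% of the 5 alpha subunits in spindle, against 30.7% to 44.6% in muscle. *Itga3* made up 3.93% to 6.64% in spindle, against 11.4% to 15.8% in muscle, and *Itga1* 6.92% to 9.86% in spindle, against 10.0% to 14.7% in muscle. The groups did not overlap for these 4 shares, and they did for *Itga6* and *Itga2*. Shares of one sum move against each other, and no test was run on them.

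**Figure D2:**
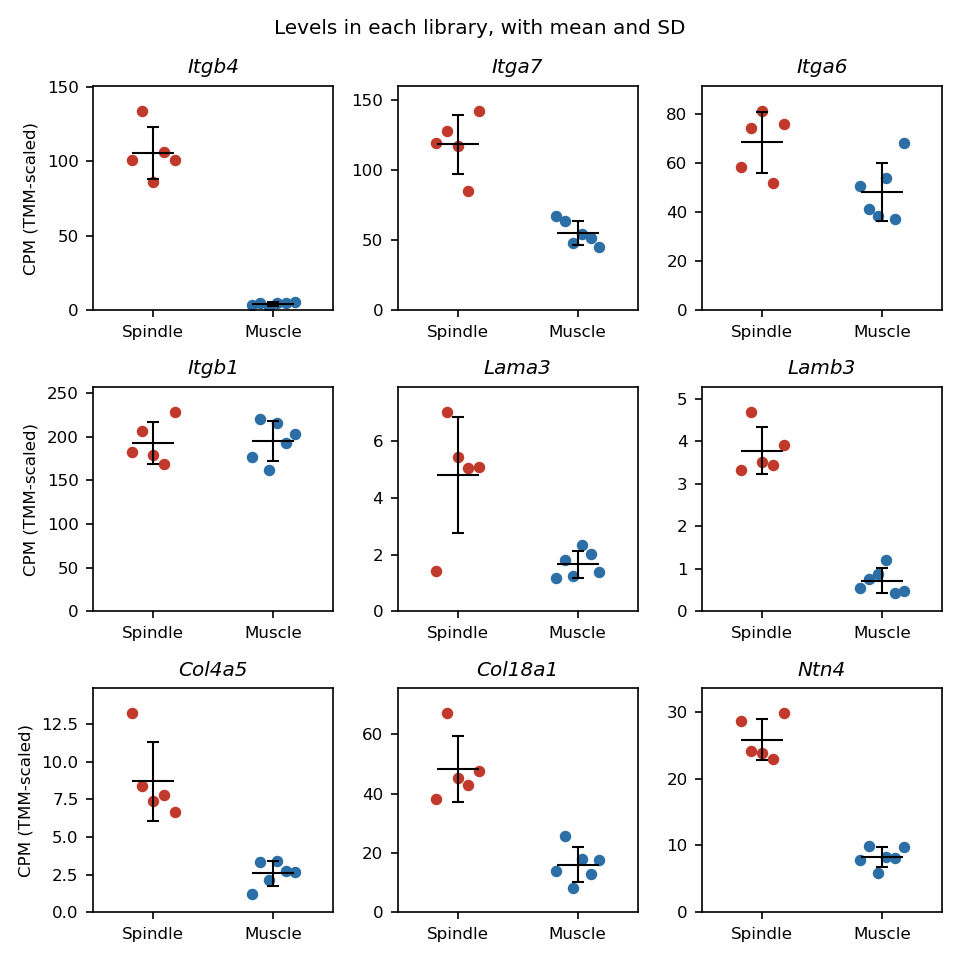
Levels in CPM of 9 members in each library (points), with spindle on the left in red and muscle on the right in blue, and the mean with 1 SD in black. *Itgb4*, *Itga7*, *Lamb3*, *Col4a5*, *Col18a1* and *Ntn4* have no overlap between the groups, *Lama3* in spindle 9 lies in the muscle range, and *Itgb1* spans the same range in both.

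Other receptors showed small differences. *Bcam*, which encodes an immunoglobulin-family receptor for the *Lama5* chain, was at 106 to 143 CPM in spindle and 49.3 to 100.3 CPM in muscle without overlap, and its log2 fold change was 0.78 (SE 0.15, adjusted p = 5.804e-04 from edgeR). *Dag1*, which encodes dystroglycan, the laminin and agrin receptor linked to dystrophin, was at 193 to 283 CPM in spindle and 212 to 323 CPM in muscle. Its log2 fold change of -0.24 (95% interval -0.54 to 0.06) did not pass. It was lower in spindle in 5 of 5 pairs, with log2 differences of -0.43 to -0.09, and its direction turned with scaling by library size alone (0.08).

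Among the laminin chains the largest differences were in *Lamb3* and *Lama3*, the beta and alpha chains of the laminin best known from epithelia, where it is the ligand of the *Itga6* and *Itgb4* integrin. *Lamb3* was at 3.33, 4.70, 3.53, 3.45 and 3.92 CPM in spindle 9, 10, 12, 13 and 16, against 0.437, 0.664 and 1.20 CPM in muscle (lowest, median, highest). The groups did not overlap, and the log2 fold change was 2.41 (SE 0.29, adjusted p = 3.672e-06 from edgeR). It lies on chromosome 1 (193207699 to 193343878, plus strand).

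*Lama3* was at 7.04, 5.43, 5.05 and 5.09 CPM in spindle 10, 12, 13 and 16 but at 1.44 CPM in spindle 9, against 1.17, 1.60 and 2.34 CPM in muscle (lowest, median, highest). Spindle 9 thus lay within the muscle range while the other spindle libraries lay above it. The log2 fold change was 1.56 (SE 0.31, adjusted p = 6.396e-04 from edgeR), and without spindle 10, 12 and 13 it was 1.04 and no longer called (adjusted p = 0.104). The gene spans 12333819 to 12583013 on chromosome 18 (plus strand).

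Both members were rare chains in either tissue. By exon length *Lamb3* made up 1.26% to 1.47% of the beta chain sum in spindle and 0.222% to 0.631% in muscle, and *Lama3* 1.32% to 5.43% of the alpha chain sum in spindle and 1.03% to 2.76% in muscle. *Lamb2*, the beta chain known from neuromuscular synapses, was the main one, at 88.8% to 92.2% in spindle and 85.5% to 91.3% in muscle. Keratinocytes and glandular epithelium also make these chains. Of 12 markers listed for such cells 6 were in the count table, where each gene has 6 or more reads in some library. The basal keratins *Krt5* and *Krt14* were not in it, nor were *Krt1*, *Krt8*, *Krt15* and *Aqp5*. *Epcam* was at 0 to 1.08 CPM in spindle and 0 to 0.267 CPM in muscle, and the summed level was 13.7 to 20.1 CPM in spindle and 5.56 to 9.66 CPM in muscle. Of the 6 markers 2 (33.3%) were called higher, where 11.1% of all genes were. *Krt19* was at 4.96 to 8.58 CPM in spindle and 0 to 0.400 CPM in muscle. *Cdh1* was at 2.25 to 6.67 CPM in spindle and 0.309 to 1.55 CPM in muscle. *Krt10* and *Trp63* had reads in every library, overlapped between the groups and were not called. The part of such cells in the *Lamb3* and *Lama3* levels was not tested.

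The alpha chains of muscle and vessel membranes differed by less than a factor of 2. *Lama2*, the chain of the muscle fiber sheet, was at 38.3 to 55.4 CPM in spindle and 20.6 to 40.3 CPM in muscle, with a log2 fold change of 0.67 (SE 0.16, adjusted p = 0.002635 from edgeR). *Lama4*, a chain of vessels, nerve and neuromuscular junctions, was at 37.3 to 48.3 CPM in spindle and 18.8 to 32.9 CPM in muscle without overlap, with 0.64 (SE 0.13, adjusted p = 0.001162 from edgeR). Both were higher in spindle in 5 of 5 pairs, and both passed the adjusted p in all 20 alternatives.

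*Lama5*, the other main vascular alpha chain, was at 29.8, 65.8, 52.3, 27.1 and 63.9 CPM in spindle 9, 10, 12, 13 and 16, against 38.2, 62.0 and 93.1 CPM in muscle (lowest, median, highest). Spindle 9 and 13 lay below every muscle library and the other spindle libraries within their range, and the log2 fold change was -0.42 (95% interval -1.01 to 0.16, adjusted p = 0.227 from edgeR). The share of *Lama5* in the alpha chain sum was 25.8% to 43.7% in spindle, against 42.7% to 65.0% in muscle, with overlap between spindle 10 and 16 and muscle 12. *Lama1*, the chain of embryonic membranes, had 36 reads over the 5 spindle libraries and 9 over the 6 muscle libraries. Its mean count of 3.93 was under the minimum for a call, and spindle 9, muscle 11 and muscle 13 held 0 reads, which allows up to 0.333, 0.154 and 0.146 CPM there for counting error.

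Of the remaining laminin chains *Lamb2* passed the test, with 192 to 275 CPM in spindle and 120 to 209.5 CPM in muscle and a log2 fold change of 0.54 (SE 0.14, adjusted p = 0.006977 from edgeR). It did not pass without spindle 10, 12 and 13 (0.53, adjusted p = 0.0712). *Lamb1* and *Lamc1*, which serve in most laminins, had log2 fold changes of 0.05 (95% interval -0.24 to 0.34) and 0.07 (-0.28 to 0.42), and the sign of either turned in some alternatives. *Lamc3*, with 53 reads over the spindle libraries and 64 over the muscle libraries, had -0.23 (-1.53 to 1.07), an interval too wide to show a difference at this depth.

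**Figure D3:**
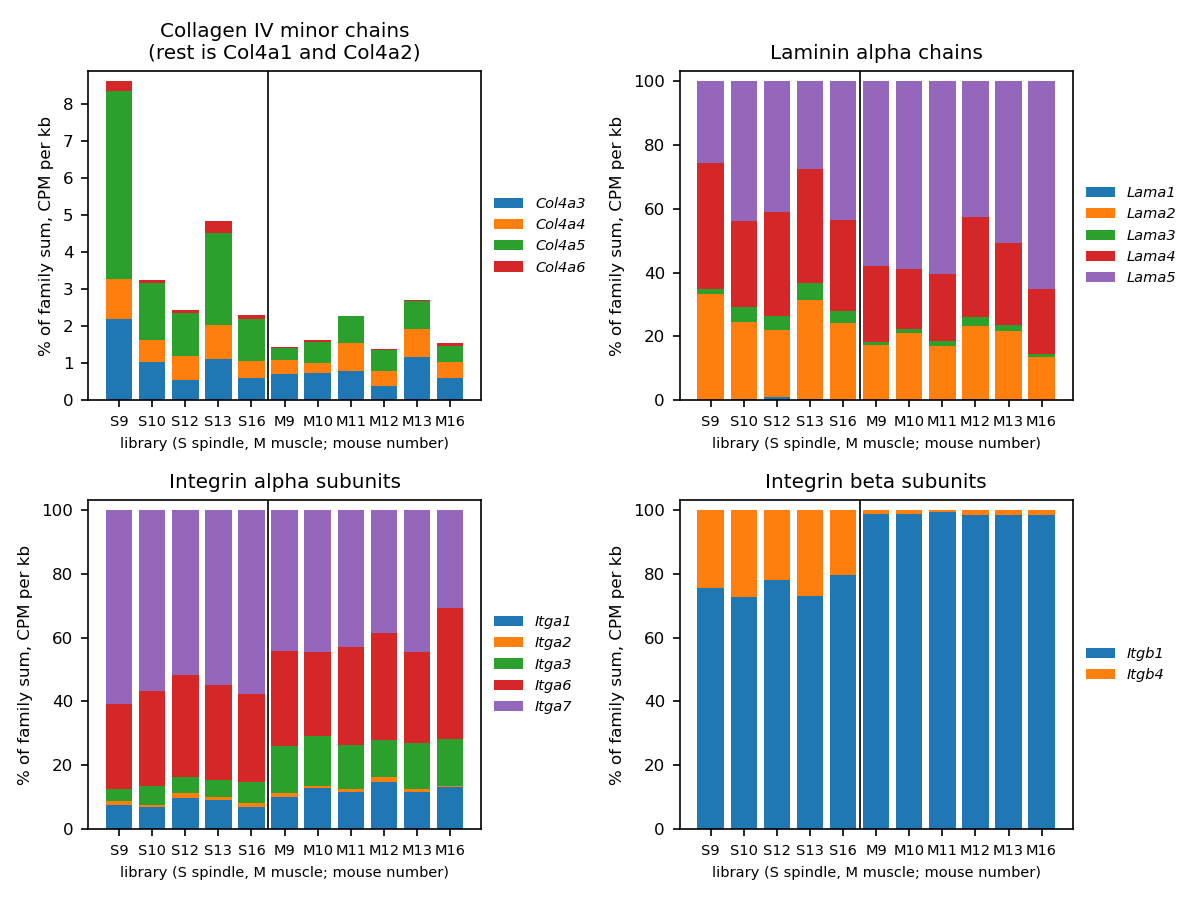
Share of each gene in its family's sum of CPM per kilobase of exon, in percent, in the 5 spindle libraries (S, left) and 6 muscle libraries (M, right) by library number; the collagen IV panel shows the minor chains alone on its own axis. *Itgb4* takes 20.4% to 27.4% of the beta sum in spindle and at most 1.50% in muscle, and *Col4a5* takes 5.08% of collagen IV in spindle 9.

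The collagen IV genes lie in 3 pairs whose members are read away from each other from adjoining starts, and sequence is shown for the pairs of *Col4a3* with *Col4a4* and *Col4a5* with *Col4a6*, since their members can be compared as neighbors. None is shown for *Col4a1* and *Col4a2*. *Col4a1* and *Col4a2* lie on chromosome 8 with starts 21 bases apart. In GENCODE vM21 these 2 genes overlap at their starts, at 11312826 (*Col4a1*, minus strand) and 11312805 (*Col4a2*, plus strand), so no interval lies between them. *Col4a3* and *Col4a4* lie on chromosome 1 with starts 72 bases apart, and *Col4a5* and *Col4a6* on chromosome X with starts 1309 bases apart. The bases below come from the RefSeq promoter table of GRCm38.p6, which covers 250 bases before a start, and none lies in an exon of GENCODE vM21. The whole interval between *Col4a3* and *Col4a4* is chr1:82586850-82586920, on the strand of *Col4a4* (minus). Of the longer interval only the stretches next to the starts are shown. The stretch before *Col4a5* is chrX:141475169-141475384 (plus strand) and the stretch before *Col4a6* is chrX:141474077-141474326 (minus strand). Capitals mark matches on either strand to CCAAT, to the GC box GGGCGG or to the TATA box TATAAA.
Col4a3-Col4a4: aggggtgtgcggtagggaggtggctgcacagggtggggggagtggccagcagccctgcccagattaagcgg
Col4a5: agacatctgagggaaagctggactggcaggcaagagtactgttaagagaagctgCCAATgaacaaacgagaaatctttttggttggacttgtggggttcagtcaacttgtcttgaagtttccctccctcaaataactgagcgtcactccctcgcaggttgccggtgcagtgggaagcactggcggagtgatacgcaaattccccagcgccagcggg
Col4a6: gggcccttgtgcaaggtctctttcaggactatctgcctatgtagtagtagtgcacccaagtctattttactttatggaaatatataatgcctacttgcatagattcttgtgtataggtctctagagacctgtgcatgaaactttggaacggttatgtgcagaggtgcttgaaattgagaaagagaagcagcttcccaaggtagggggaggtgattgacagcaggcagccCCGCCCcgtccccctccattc

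The *Col4a3* and *Col4a4* interval is 71 bases of 69.0% G and C and held none of the 3 motifs, which 13.3% (CCAAT), 20.7% (GC box) and 4.41% (TATA box) of 32851 promoters held in a window of the same length and place. The *Col4a5* stretch held 1 CCAAT match, as did 30.5% of promoters, and the *Col4a6* stretch held 1 GC box match, as did 32.7%. These matches are a description of the letters.

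By gene pair, the log2 fold changes were -0.04 and -0.05 (*Col4a1*, *Col4a2*), 0.41 and 0.52 (*Col4a3*, *Col4a4*) and 1.75 and 1.43 (*Col4a5*, *Col4a6*), and the gene pairs were not tested against each other. *Col4a5* was at 13.2, 8.37, 7.40, 7.78 and 6.63 CPM in spindle 9, 10, 12, 13 and 16, against 1.22, 2.70 and 3.40 CPM in muscle (lowest, median, highest). All spindle libraries lay above all muscle libraries, with spindle 9 the highest. The log2 fold change was 1.75 (SE 0.24, 95% interval 1.24 to 2.26, adjusted p = 2.055e-05 from edgeR), and it was 1.56 to 2.06 over the alternatives. The gene spans 141475385 to 141689234 on chromosome X.

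*Col4a6*, whose chain joins that of *Col4a5* in a trimer, was at 0.778, 0.602, 0.578, 1.20 and 0.766 CPM in spindle 9, 10, 12, 13 and 16, against 0.0515, 0.231 and 0.719 CPM in muscle (lowest, median, highest). Muscle 16 alone reached into the spindle range. There were 59 reads over the spindle libraries and 29 over the muscle libraries, and the interval of the log2 fold change was wide (0.19 to 2.67). Its log2 fold change of 1.43 (SE 0.60, adjusted p = 0.0624 from edgeR) was called in 6 of 20 alternatives, with an adjusted p of 0.0232 to 0.247 over them. *Col4a3* and *Col4a4*, whose chains join *Col4a5* in the membranes of kidney and lung, were at 5.14 to 8.44 and 4.37 to 6.36 CPM in spindle, against 3.47 to 6.36 and 2.22 to 4.37 CPM in muscle. Neither passed the test in the main fit, where the 95% intervals were -0.05 to 0.88 (*Col4a3*) and 0.06 to 0.97 (*Col4a4*). The adjusted p of *Col4a4* was 0.0646 from edgeR. It was at most 0.05 in 5 of 20 alternatives, and that of *Col4a3* in 2. Their log2 fold changes were at most 0.82 and 0.73 over the alternatives, under the minimum for a call.

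*Col4a1* and *Col4a2*, which make the collagen IV of nearly all basement membranes, held 91.4% to 97.7% of the family's length-scaled sum in spindle and 97.3% to 98.6% in muscle. *Col4a1* was at 158, 319, 373, 197 and 344 CPM in spindle 9, 10, 12, 13 and 16, against 179.7, 289.6 and 377 CPM in muscle (lowest, median, highest). *Col4a2* was at 94.6, 236, 281, 121 and 259 CPM in the same spindle libraries, against 129, 209.8 and 276 CPM in muscle. Spindle 9 was below every muscle library for both genes and spindle 13 was below every muscle library for *Col4a2*, and spindle 12 was above every muscle library for *Col4a2*. The 95% intervals of the log2 fold changes were -0.57 to 0.49 and -0.70 to 0.61. The share of *Col4a5* in the family was 1.13% to 5.08% in spindle, against 0.325% to 0.742% in muscle, without overlap.

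The levels of these main chains were set beside library number and markers of endothelium. *Col4a1* was lower in pairs 9 and 13 (158 and 197 CPM in spindle, 218 and 227 CPM in muscle) than in pairs 10, 12 and 16 (319 to 373 CPM in spindle, 352 to 377 CPM in muscle). Of 12 endothelial markers 0 were called by edgeR, with 1 higher and 0 lower at an unadjusted p under 0.05. Their summed level was 494, 788, 1015, 617 and 951 CPM in spindle 9, 10, 12, 13 and 16, against 611 to 1035 CPM in muscle. The libraries lowest for this sum in each tissue, spindle 9 and muscle 11, were also the lowest of their tissue for *Col4a1* and *Col4a2*, and those highest, spindle 12 and muscle 16, the highest for both. In between the order did not follow the markers, since muscle 10 had a lower sum than muscle 9 and 13 (687, against 714 and 737 CPM) but more *Col4a1* (352, against 218 and 227 CPM). In spindle the same low libraries, 9 and 13, were low for *Hspg2*, *Agrn* and *Lama5*. The part of vessels in these levels was not tested.

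**Figure D4:**
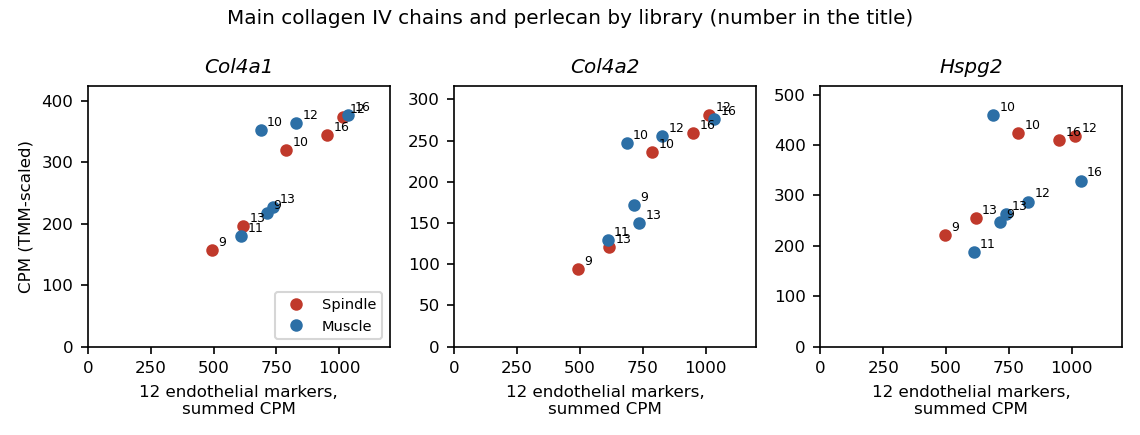
Levels of *Col4a1*, *Col4a2* and *Hspg2* in CPM against the summed CPM of 12 endothelial markers, 1 point per library with its number, spindle in red and muscle in blue. Spindle 9 has the lowest marker sum (494 CPM) and the lowest *Col4a1* (158 CPM), and muscle 16 has the highest of both (1035 and 377 CPM).

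Among the linkers of the sheet, both nidogens passed the test and perlecan and agrin did not. *Nid1* was at 132, 124, 113, 129 and 121 CPM in spindle 9, 10, 12, 13 and 16, against 59.1, 89.6 and 104 CPM in muscle (lowest, median, highest). *Nid2* was at 19.9, 29.6, 29.2, 22.6 and 23.6 CPM in spindle, against 8.91, 12.5 and 17.3 CPM in muscle. For both nidogens all spindle libraries lay above all muscle libraries. The log2 fold changes were 0.54 (SE 0.15, adjusted p = 0.007439) for *Nid1* and 0.94 (SE 0.17, adjusted p = 2.673e-04) for *Nid2* from edgeR. *Nid2* stood just under the minimum fold change and was called in 9 of 20 alternatives. Among them were library size alone (1.25), the median gene set to 0 (1.10), DESeq2 size factors in edgeR, DESeq2 and filterByExpr (1.02 each). The others were without spindle 9 (1.01), muscle 12 (1.01) or muscle 16 (1.03), and without spindle 16 and muscle 12 together (1.03). Of the exon bases of *Nid2* 8.4% overlap *Rtraf*. *Nid1* did not pass without spindle 10, 12 and 13, which leaves only spindle 9 and 16, though its log2 fold change there was 0.57 (adjusted p = 0.0721).

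*Hspg2*, which encodes perlecan, was at 221 to 424 CPM in spindle and 188 to 459.5 CPM in muscle, with a log2 fold change of 0.22 (95% interval -0.23 to 0.68). *Agrn*, which encodes the organizer of acetylcholine receptors at neuromuscular junctions, was at 21.7 to 46.8 CPM in spindle and 21.8 to 33.8 CPM in muscle, with 0.34 (-0.04 to 0.72). Gene counts do not separate the nerve and muscle splice forms of agrin, nor the splice forms of the integrin and *Lama3* genes.

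*Col18a1* and *Ntn4* were called, and *Col15a1* passed the test below the minimum fold change. *Col18a1*, whose product carries heparan sulfate and yields endostatin, was at 38.3, 67.2, 45.3, 42.8 and 47.7 CPM in spindle 9, 10, 12, 13 and 16, against 8.29, 15.7 and 25.6 CPM in muscle (lowest, median, highest). *Ntn4*, a netrin that binds laminin gamma chains and hinders laminin networks, was at 28.6, 24.1, 23.8, 22.9 and 29.8 CPM in spindle, against 5.92, 8.14 and 9.92 CPM in muscle. Neither gene overlapped between the groups, and of the 7 called genes *Ntn4* had the closest spindle values, with the highest 1.30 times the lowest. The log2 fold changes were 1.61 (SE 0.22, adjusted p = 6.029e-05) and 1.64 (SE 0.15, adjusted p = 6.191e-08) from edgeR. Both genes lie on chromosome 10, *Col18a1* at 77052178 to 77166548 (minus strand) and *Ntn4* at 93640681 to 93747207 (plus strand).

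*Col15a1*, the relative of *Col18a1* found under muscle fibers and capillaries, was at 80.5 to 117 CPM in spindle and 40.4 to 80.1 CPM in muscle without overlap. Its log2 fold change was 0.72 (SE 0.16, adjusted p = 0.001796 from edgeR), and without spindle 10, 12 and 13 it was 0.61 with an adjusted p of 0.0603. *Col18a1* made up 26.5% to 34.2% of the length-scaled sum of both genes in spindle, against 15.6% to 24.1% in muscle.

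The Fraser complex, which anchors the epidermis and other epithelia to their matrix in the embryo, had no called member. *Fras1* was at 7.86 to 14.4 CPM in spindle and 6.61 to 28.7 CPM in muscle, and *Frem2* at 2.81 to 11.3 CPM in spindle and 5.15 to 9.28 CPM in muscle. The 95% intervals of their log2 fold changes were -0.90 to 0.54 and -0.83 to 0.31. *Frem1* was at 0.556, 2.65, 2.83, 2.09 and 3.34 CPM in spindle 9, 10, 12, 13 and 16, against 0.309 to 2.32 CPM in muscle, with 0.86 (-0.04 to 1.76). Without spindle 9 it was called (1.10, adjusted p = 0.0312 from edgeR).

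Over all members 12 of 35 (34.3%) had every spindle library above every muscle library, where 9.15% of all genes did, and 0 had every spindle library below, where 8.65% of all genes did. *Col4a4* is among the 12 by a margin that rounds away, 4.37 CPM in both spindle 16 and muscle 13. Within the 5 pairs, 18 members were higher in spindle in all 5 and 2, *Itga3* and *Dag1*, were lower in all 5. The share of all genes that did so was not counted, so these counts are not read as a trait of the members. The log2 difference within pairs was 3.93 to 4.66 for *Itgb4*, 1.31 to 1.70 for *Col18a1*, 1.24 to 1.79 for *Ntn4* and 0.72 to 1.63 for *Itga7*. *Col4a5* was between 1.02 and 1.36 in 4 pairs and 2.99 in pair 9.

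**Figure D5:**
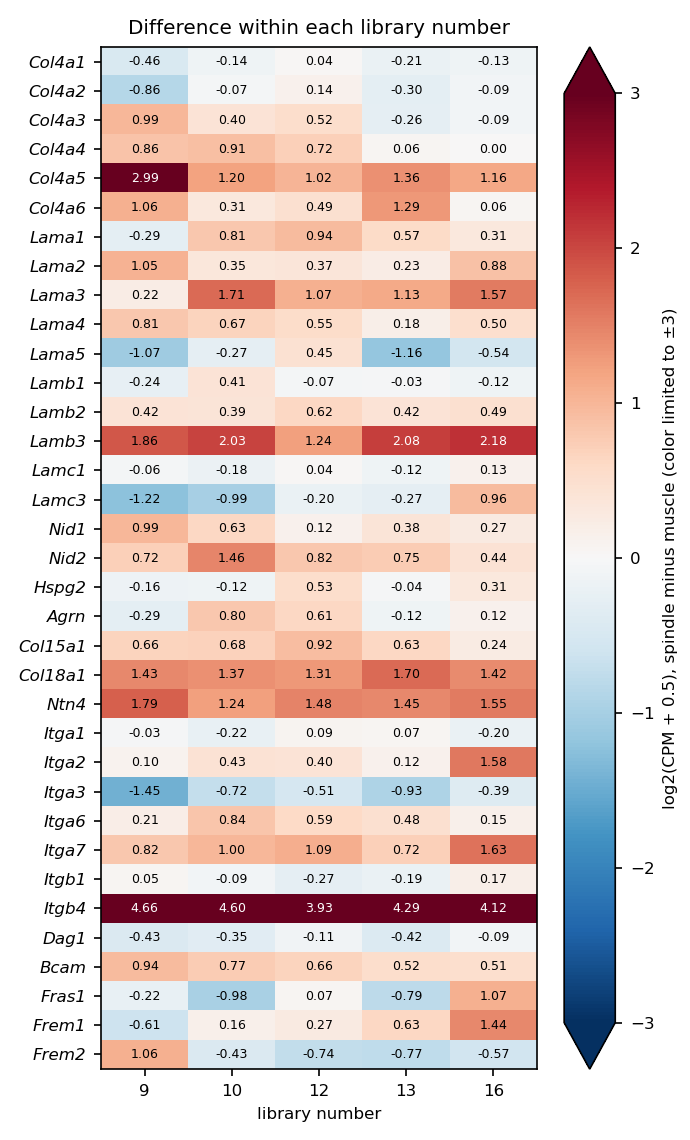
Difference in log2(CPM + 0.5), spindle minus muscle of the same library number, for each of the 35 members in the 5 pairs; red is higher in spindle, and the color stops at 3 in either direction. *Itgb4* is above 3.9 in every pair, *Lamb3* is between 1.24 and 2.18, and *Itga3* is negative in all 5.

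By level per kilobase of exon, *Itgb1* ranked 1 of the 35 members, with a median of 44.8 CPM per kilobase in spindle (range 41.4 to 56.0) and 48.6 in muscle (39.6 to 54.0). *Col4a1* (42.8), *Bcam* (40.6), *Lamb2* (37.8) and *Col4a2* (35.7) followed in spindle, and their ranges over libraries overlapped. *Itgb4* ranked 12 in spindle and 23 in muscle. The order depends on the length used, and by coding length, an alternative chosen after seeing the data, *Dag1* ranked 1 in muscle with *Itgb1* 2, *Itgb4* ranked 13 in spindle and 24 in muscle, and *Lama1* was the lowest in both tissues by either length.

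Of markers of other cell types that make these proteins, unlike shares were called higher in spindle, where 11.1% of all genes were. Perineurial cells, the sheath cells of nerves that are known to express *Itgb4* on their laminin membranes, had 7 of 7 markers called higher, with a summed level of 169 to 343 CPM in spindle and 6.74 to 14.2 CPM in muscle. Schwann cells, which use the same integrin, had 9 of 10 called higher, with 522 to 999 CPM in spindle and 83.1 to 282 CPM in muscle. Fibroblast markers had 4 of 9 called higher, with 2021 to 3491 CPM in spindle and 654 to 2378 CPM in muscle, and pericyte and smooth muscle markers 2 of 9, with 675 to 953 CPM in spindle and 726 to 1105 CPM in muscle. Of 6 satellite cell markers 1 was called higher, with 79.9 to 106 CPM in spindle and 72.0 to 86.1 CPM in muscle. At an unadjusted p under 0.05 from edgeR 2 pericyte and smooth muscle markers were higher and 3 lower. For satellite cell markers 3 were higher and 1 lower at that threshold, for which no share of all genes was counted. The summed levels of the fibroblast, pericyte and satellite cell lists overlapped between the groups. Spindle 9 had the highest perineurial sum (343 CPM) but the lowest *Lama3* level of the spindle libraries. Spindle 10, with the highest Schwann cell sum (999 CPM), had the highest *Itgb4*, *Lama3*, *Lamb3* and *Col18a1* levels. Next in Schwann cell sum was spindle 9 (618 CPM), which had the lowest *Lama3*, *Lamb3* and *Col18a1* levels of the spindle libraries. The part of any of these cells in the members' differences was not tested.

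Further genes of the basement membrane, outside the 35, were counted by the same rule and are read against the 11.1% of all genes called higher and the 1.80% called lower. Counts at an unadjusted p, given below for some lists, have no share of all genes beside them. Of 18 other matrix proteins in the table, 7 (38.9%) were higher and 1 (5.56%) was lower, with a median log2 fold change of 0.74. *Ntn1*, a guidance cue related to *Ntn4*, had 35.8 ± 11.8 CPM in spindle and 6.72 ± 1.15 CPM in muscle (SD, n = 5 and 6), with a log2 fold change of 2.42 (SE 0.20, adjusted p = 6.898e-08 from edgeR). *Fbln1*, a fibulin that binds nidogen and laminin, had 2.93 (SE 0.24), and the hemicentins *Hmcn2* and *Hmcn1*, which are known from worms for tying adjoining basement membranes together, had 1.75 (SE 0.20) and 1.80 (SE 0.25). The gene that fell was *Smoc1*, a calcium-binding matrix protein of basement membranes, with 2.74 ± 1.51 CPM in spindle and 18.9 ± 4.51 CPM in muscle and a log2 fold change of -2.73 (SE 0.33, adjusted p = 2.451e-05 from edgeR).

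Of 19 genes that fold, modify or crosslink collagen, 4 (21.1%) were higher and 0 lower, with a median of 0.44. At an unadjusted p under 0.05 from edgeR 2 were lower, and DESeq2 and limma-voom called 0 lower. The 4 are the lysyl hydroxylase *Plod2* (1.32), the procollagen C-proteinase enhancer *Pcolce* (1.19), the prolyl 3-hydroxylase *P3h2* (1.69), which acts on collagen IV, and the prolyl 4-hydroxylase subunit *P4ha3* (2.63).

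Of 17 genes that build the laminin-binding glycan of dystroglycan, 0 were higher and 1 was lower, and the list's median was -0.28. At an unadjusted p under 0.05 from edgeR 1 was higher and 8 were lower, and DESeq2 and limma-voom called 0 higher. Without the minimum fold change 0 were higher and 7 lower, where 15.9% and 15.0% of all genes were. *B3galnt2*, a glycosyltransferase of this glycan, had 23.5 ± 4.57 CPM in spindle and 48.1 ± 5.63 CPM in muscle (SD, n = 5 and 6) and a log2 fold change of -1.03 (SE 0.14, adjusted p = 1.218e-05 from edgeR), close to the minimum. It was not called with library size alone, DESeq2 size factors in edgeR, the median gene set to 0, DESeq2 or filterByExpr, nor without spindle 9, spindle 12 or muscle 16. Of 19 cytoplasmic partners of integrins 2 (10.5%) were higher, a share near that of all genes, and 0 lower, with a median of -0.13, and at an unadjusted p under 0.05 from edgeR 5 were lower, while DESeq2 and limma-voom called 0 lower. The 2 are *Tns3*, a tensin (2.31, SE 0.16), and *Parva*, a parvin that links integrins to actin (1.36, SE 0.14). Without the minimum fold change 3 of these partners were higher and 5 lower.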

How the data were processed

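Spindle and extrafusal muscle of the mouse deep masseter were compared as RNA read counts. The deposited values are raw counts per gene. The authors sequenced polyadenylated RNA single-end, aligned it with STAR 2.4.2a to GRCm38 (submitters' processing notes) and kept reads with 1 position, so reads shared by near-identical genes are lost. Each gene in the table has 6 or more reads in some library. The authors' own normalized values and test columns (22 per-sample columns and their fold changes and p-values) were not used.

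All 22384 genes were fitted with edgeR 4.0.16 in R 4.3.3 (TMM scaling, robust quasi-likelihood test, Benjamini-Hochberg adjustment over all genes), spindle against muscle, with no term for the mouse because the study's methods name none. A standard error is the size of the log2 fold change over the root of the F statistic. DESeq2 1.42.0 and limma 3.58.1 (voom) served as alternatives. Gene positions and exon lengths came from GENCODE vM21 (GRCm38), matched by symbol for 95.2% of genes, while the authors used a later release. Shares within families use CPM per kilobase of exon and principal components and differences within pairs add 0.5 CPM before the logarithm. Plots were drawn with matplotlib 3.10.9. Scripts were tested on simulated data. The smallest library, spindle 9, held 8354260 reads, and intervals for 0 reads cover counting error only, since PCR reads are not independent molecules.

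The study took both tissues from each mouse, and libraries of the same number were read as 1 mouse, which the labels do not state. In 12503 genes (mean count 20 or more) their deviations from the group means correlated at 0.08 (number 9), 0.32 (10), 0.17 (12), 0.25 (13) and 0.30 (16). Spindle 10, 12, 13 and 16 each correlated best with the muscle library of the same number, and spindle 9 with muscle 12. A fit with the number as a block on the 5 pairs was an alternative. Every member is named, and in each further list the called genes with the 4 smallest adjusted p in each direction. The members and lists were chosen with earlier results of these data known.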

Additional observations from a re-analysis of the deposited data

Results flagged for a closer look

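Among 70 groups of levels (35 members in 2 tissues) 2 held a library far from the rest, where chance gives about 1 in 20, or 3.5. *Col4a5* in spindle 9 was at 13.2 CPM and the next spindle library at 8.37 CPM. *Fras1* in muscle 10 was at 28.7 CPM and the next muscle library at 13.9 CPM. Spindle 9 also had the fewest reads and the largest mitochondrial share (38.2% of counts, against 22.6% to 29.7% in the other spindle libraries), and muscle 10 had the fewest reads of the muscle libraries (9690335). Whether these library properties bear on either value was not tested.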

How the results depend on the processing

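Each of the 35 fold changes was refitted under 20 alternatives. For the 7 called members, 139 of 140 values kept their direction and their call, and the exception was *Lama3* without spindle 10, 12 and 13 (1.04). Members called higher numbered 13 with scaling by library size alone and 15 without a minimum fold change (then 1 lower), 7 with the library number as a replicate block, 6 to 9 under the other alternatives and 7 to 9 leaving out 1 library. Over all genes 2493 were called higher and 402 lower (86.1% higher). Calls lower numbered 140 with library size alone, 233 with the median gene set to 0 and 3348 without a minimum fold change, and calls higher 1587 without spindle 10, 12 and 13. Without the minimum fold change 51.5% of 6906 calls were higher. The median of all genes was 0.29 in the main fit, 0.60 with library size alone and 0.46 with the median gene set to 0. Despite its name, the last setting did not bring the median of all genes to 0. That median was 0 with filterByExpr and -0.02 without spindle 10, 12 and 13. The members' median was 0.54 in the main fit. Under the same settings, in the same order, it was 0.85, 0.7, 0.6 and 0.48.

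Signs that turned belong to members with intervals across 0. With library size alone they were *Col4a1*, *Col4a2* and *Itgb1* (0.30 each), *Lamc3* (0.11), *Dag1* (0.08), *Fras1* (0.16) and *Frem2* (0.06). With DESeq2 size factors in edgeR, DESeq2 and filterByExpr alike, *Col4a1* (0.03), *Col4a2* (0.02) and *Itgb1* (0.06) turned, with the median gene set to 0 the same genes (0.13, 0.12 and 0.15), and with limma-voom *Fras1* (0.05). The replicate block turned *Lamb1* (-0.02), *Lamc1* (-0.04) and *Itga1* (-0.06) and changed no call. Without spindle 16 and muscle 12 *Lamc1* was 0.00, and without spindle 10, 12 and 13 *Lamb1* was -0.16, *Itga1* -0.06, *Itgb1* 0.08 and *Frem2* 0.17. Leaving out 1 library at a time gave -0.17 to 0.11 for *Col4a1*, -0.20 to 0.13 for *Col4a2*, -0.51 to 0.13 for *Lamc3*, -0.08 to 0.03 for *Itgb1*, -0.02 to 0.15 for *Lamb1*, -0.11 to 0.09 for *Itga1*, -0.04 to 0.15 for *Lamc1* and -0.33 to 0.15 for *Fras1*.

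Shares by coding length of GENCODE, an alternative chosen after seeing the data, put *Lama4* (45.9%) above *Lama5* (26.8%) in spindle, where exon length gave 32.4% and 41.1%, so the order of these chains rests on the length used. Ranks of the members' levels also moved with it, *Itga1* from 22 to 15 in spindle. The shares of *Itgb4* were 16.2% to 22.1% in spindle and 0.557% to 1.13% in muscle by coding length. Coding length from RefSeq proteins was not run. *Lama1*, with 45 reads in all, has no value under filterByExpr. Depth limits *Lama1*, *Lamc3* and *Col4a6* most.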
